A study of Mus musculus with 10 samples.

Results

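The genes described here encode the subunits of the proteasome and the factors that assemble, activate or inhibit it. They were taken by name from the gene table of 36144 rows: every symbol formed from Psma to Psmg and a number, leaving out the immune subunits Psmb8 and Psmb9 and symbols ending in -ps, together with Pomp. This gave 51 genes. Of these, 48 are components or helpers of the proteasome and 3 matched by spelling alone: Psmc3ip, whose product works in meiotic recombination, and the pseudogenes Psmb6-ps2 and Psmb7-ps2. The set was put forward because Pomp had one of the smallest p-values of the genotype comparison, at rank 18 of 13131 genes tested. The differences of member RNA levels between genotypes come from that same comparison. They are therefore given as a description, and the counts of members past a threshold support nothing.

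The proteasome is the cell's main machine for breaking down proteins tagged with ubiquitin. Its core particle, the 20S proteasome, is a barrel of 2 outer alpha rings and 2 inner beta rings, and 3 of the beta subunits (Psmb5, Psmb6 and Psmb7) cut the protein chain. A regulatory particle, the 19S, caps the barrel: its base carries the ATPases that unfold a substrate, and its lid removes ubiquitin. Chaperones guide the rings together, and among them Pomp joins the alpha and beta subunits and is itself the first substrate of the finished core. When proteasome activity falls short, the transcription factor Nfe2l1 is known to raise most subunit genes together through antioxidant response elements in their promoters.

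RNA was measured in cultured primary smooth muscle cells of the aortic media. The mice were male and 8 weeks old, and the cultures had passed between 2 and 7 times. One group held 3 wild-type mice, for which the labels name no Cre driver, and the other 3 mice with Myh11-Cre-ERT2 and Adamts7 overexpression in smooth muscle, each library from its own mouse. This Cre acts when tamoxifen is given in cells that use the Myh11 promoter, and the use of tamoxifen was not found in the labels, so driver, tamoxifen and transgene cannot be told apart. ATAC-seq, which reads open chromatin, was made from 2 mice of each genotype. The genotype label decided the group, since the title of each overexpression RNA library also opens with the abbreviation for wild type. All RNA libraries carry the same batch label. Levels are given in TPM, a length-corrected share of the transcripts of one library.

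Adamts7, the metalloprotease gene that was overexpressed, stood at 6.08, 6.18 and 8.20 TPM in wild-type mice 1, 2 and 3 and at 98.7, 79.1 and 75.8 TPM in overexpression mice 1, 2 and 3, an order kept for all values listed below. The groups did not overlap. A two-sided exact permutation test gave p = 0.1, the smallest that 3 against 3 can give. On the first principal component of all genes, overexpression mouse 3 had an intermediate score (-0.67, against -20.3 to -16.8 in wild type and 18.6 and 39.4 in overexpression mice 1 and 2). The labelled smooth muscle cells also carried RNA of other cell types. All 16 of 16 macrophage markers were higher in overexpression cultures, with a summed level of 506 to 748 TPM in wild type and 1208 to 3880 TPM in overexpression. Of 14 endothelial markers 13 were lower, with 4880 to 5410 and 2499 to 4126 TPM, and of 8 smooth muscle markers 7 were higher, with 2292 to 2407 and 2627 to 3952 TPM. The most abundant in wild type were Lyz2, C1qa and Cd68 for macrophages, Emcn, Cdh5 and Pecam1 for endothelium and Acta2, Tagln and Smtn for smooth muscle. Fibroblast markers summed to 237 to 262 TPM in wild type and 345 to 833 TPM in overexpression, and 3 of the 5 tested were higher. The collagen genes Col1a1, at 122 and 313 TPM, and Col1a2, at 85.2 and 236 TPM, held most of that sum, whereas Dcn was at 31.1 and 19.7 TPM and Pi16 at 3.88 and 3.66 TPM in wild type and overexpression. No marker of these 4 lists was at 0 in all libraries. The fibroblast markers Lum, Dpt, Clec3b and Dpep1 were near 0 in wild type, at 0.0302, 0.112, 0.138 and 0.175 TPM. In bulk RNA, fewer cells of a type and less RNA per cell cannot be told apart, and the part that cell mixture has in the values below was not tested.

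The promoters of the genes the results turn on are shown first, because subunit genes are known to be regulated through them. RefSeq promoter sequences (GRCm38.p6, the build the submitters name as mm10) matched 41 of the 51 genes. Pomp (ENSMUSG00000029649.10) lies on chromosome 5 from 147860628 to 147875784. The 250 bases before its start, chr5:147860378-147860627 on the plus strand, hold the ETS core CCGGAAG once on each strand, in capitals:
Pomp: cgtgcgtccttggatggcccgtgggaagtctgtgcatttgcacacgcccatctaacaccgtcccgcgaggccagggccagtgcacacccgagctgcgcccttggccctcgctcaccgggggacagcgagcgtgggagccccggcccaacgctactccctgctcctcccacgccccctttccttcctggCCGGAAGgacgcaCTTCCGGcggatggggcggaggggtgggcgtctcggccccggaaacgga
None of the other 6 motifs searched matched the Pomp promoter window.

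Antioxidant response elements, searched as TGACNNNGC on both strands of the window from 250 bases before to 50 after the start, matched 6 of 41 member genes (14.6%), against 14.0% of all 27025 genes with a promoter in the table and 16.8% of those tested for expression. The 6 genes were the catalytic Psmb5 and Psmb6, the ATPase Psmc6, the lid subunit Psmd12, the base chaperone Psmd9 and the activator Psme4. All 6 had a positive log2 fold change, from 0.10 to 0.22, and in Psmb5, Psmb6, Psmc6, Psmd12 and Psmd9 the libraries of the genotypes did not overlap. Over all genes tested, 48.3% were higher and 14.3% were higher with no overlap, and nothing is read from the count of these 6. The stretches of 40 bases around the match are given for the 4 of them whose stretch touches no annotated gene, with the element or its reverse complement in capitals. They lie at chr14:54618019-54618058 on the minus strand for Psmb5 and, on the plus strand, at chr14:45329581-45329620 for Psmc6, chr11:107479278-107479317 for Psmd12 and chr5:123228143-123228182 for Psmd9:
Psmb5: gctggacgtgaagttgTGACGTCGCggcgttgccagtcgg
Psmc6: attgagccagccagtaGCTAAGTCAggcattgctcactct
Psmd12: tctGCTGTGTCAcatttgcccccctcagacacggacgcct
Psmd9: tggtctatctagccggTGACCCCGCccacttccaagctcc

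Sites of NRF1 (nuclear respiratory factor 1, a different protein from Nfe2l1) matched 7 of 41 member genes (17.1%), against 5.19% of all genes and 11.5% of those tested. They were the alpha subunits Psma2, Psma3 and Psma4, the ATPases Psmc4 and Psmc5, the lid subunit Psmd14 and the chaperone Psmg1. The stretches of 40 bases are given for the 4 of them whose stretch touches no annotated gene, at chr13:14613100-14613139 (Psma2), chr11:106256121-106256160 (Psmc5) and chr2:61711599-61711638 (Psmd14) on the plus strand and chr7:28050237-28050276 (Psmc4) on the minus strand, with the site in capitals:
Psma2: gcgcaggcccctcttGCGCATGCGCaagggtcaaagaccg
Psmc5: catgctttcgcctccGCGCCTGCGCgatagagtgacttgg
Psmd14: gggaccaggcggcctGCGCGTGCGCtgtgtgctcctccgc
Psmc4: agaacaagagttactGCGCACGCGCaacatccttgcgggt
Of these 7 genes, 5 had a positive log2 fold change, and Psmc4 and Psmg1 a negative one.

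The ETS core, searched as CCGGAAG, was the most frequent of these 3 motifs, in 16 of 41 member genes (39.0%) against 9.93% of all genes and 20.2% of those tested. Of the 16, 10 had a positive log2 fold change, and the values ran from -0.26 for Psmd11 to 0.53 for Pomp. The CCAAT box (CCAAT) matched 14 of 41 genes (34.1%, against 41.1% of all genes and 43.2% of those tested). The E-box (CACGTG) matched 4 (9.76%, against 8.09% of all genes and 11.7% of those tested). The YY1 site (AAGATGGCG) matched 2, Psmb6 and Psmc5 (4.88%, against 1.64% of all genes and 3.56% of those tested). The heat shock element matched none of these windows, against 0.662% of all genes and 0.545% of those tested. No matches of different motifs overlapped in the member promoters. A match describes the letters of this window and is not a measured binding site.

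In wild-type cells the 20S and 19S subunit genes were expressed within a narrow range of levels, while assembly factors other than Pomp were lower. The 14 constitutive 20S genes ran from 83.2 TPM for Psma2 to 224 TPM for Psmb6, a 2.69-fold range of wild-type means. The 17 genes of the 19S particle within the naming pattern ran from 88.0 TPM for Psmd3 to 369 TPM for the lid subunit Psmd8, a 4.19-fold range. Subunit genes outside the pattern, such as the lid gene Sem1, are left out of all 19S values and sums given here. Summed over genes, the 20S core held 1946, 2116 and 2149 TPM and the 19S particle 2825, 2899 and 2902 TPM in wild-type mice 1, 2 and 3. Pomp stood at 170.5 TPM, within the range of the subunits, whereas the 4 chaperones that pair up to build the alpha ring, Psmg1 to Psmg4, lay between 9.004 TPM (Psmg4) and 26.7 TPM (Psmg1). The alternative core subunits were low, with Psma8 of testis at 8.30 TPM, Psmb10 of immune cells at 17.8 TPM and Psmb11 of the thymus at 0.567 TPM.

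**Figure D1:**
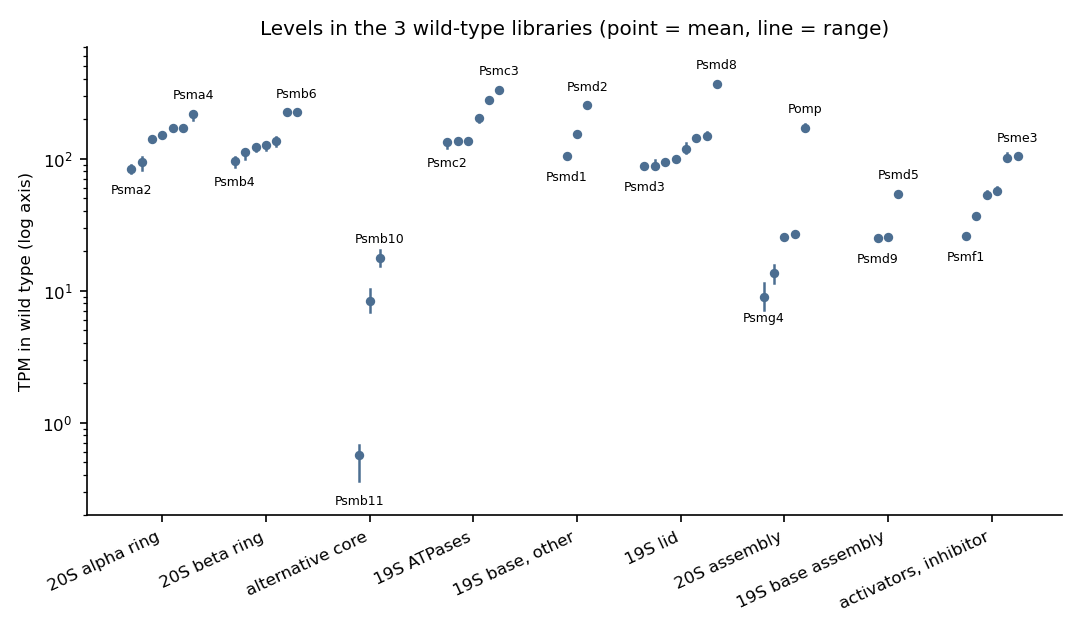
TPM of each proteasome gene in the 3 wild-type libraries on a log axis, grouped by role, with points for means and lines for the range. Subunits of the 20S core and 19S particle lie between 83.2 and 369 TPM, and among the 20S chaperones Pomp, at 170.5 TPM, lies above Psmg1 to Psmg4.

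Replicates of the subunit genes were close. Over the 47 components with a mean of at least 1 TPM, the coefficient of variation among the wild-type mice had a median of 4.62%, against 7.54% over all genes tested. It ranged from 0.634% for the core subunit Psmb2 to 24.6% for Psmg4. The 2 medians are not matched for level: the wild-type means had a median of 108 TPM over the components and 21.3 TPM over all genes tested. Wild-type mouse 1 was the lowest of the 6 libraries for 11 of the 14 core genes, and for 5 of 17 genes of the 19S particle. Of the 51 members, 48 passed the filter of a mean of 1 TPM; Psmb11 and the 2 pseudogenes, 1 of them at 0 in all libraries, did not.

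Across genotypes, 31 of the 48 members that passed the filter had a higher and 17 a lower level in overexpression. Their median log2 fold change was 0.09, against -0.01 over all 13131 genes tested, of which 48.3% were higher. Without wild-type mouse 1 the members' median was 0.0483. The differences were small: 41 of 47 components had a log2 fold change of less than 0.25 in size. The 3 overexpression libraries lay wholly above the wild-type libraries for 17 members and wholly below for 5, while 14.3% and 12.9% of all genes tested did so. With limma and Benjamini-Hochberg adjustment over all genes tested 0 members were past 0.05, against 0.0152% of all genes. At an unadjusted p below 0.05 limma had 8 members higher and 3 lower, where 10.6% and 8.94% of all genes were. Without wild-type mouse 1, 2 or 3 the higher count was 4, 6 or 11, where 7.55%, 8.09% or 7.57% of all genes were higher at that threshold. Without overexpression mouse 1, 2 or 3 it was 5, 8 or 6, beside 7.89%, 9.39% or 11.9% of all genes. It was 13 with median-of-ratios scaling (10.8% of all genes) and 14 with quantile normalisation (9.81%), and with library weights 16 were higher and 9 lower (19.2% and 18.3%). Because the comparison was used to choose the set, nothing is read from these counts. Without overexpression mouse 3, Pomp alone of the members was past the adjusted threshold (6.30% of all genes were), and with libraries weighted by quality 9 members were past it higher and 3 lower, where 11.4% and 9.42% of all genes were.

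**Figure D2:**
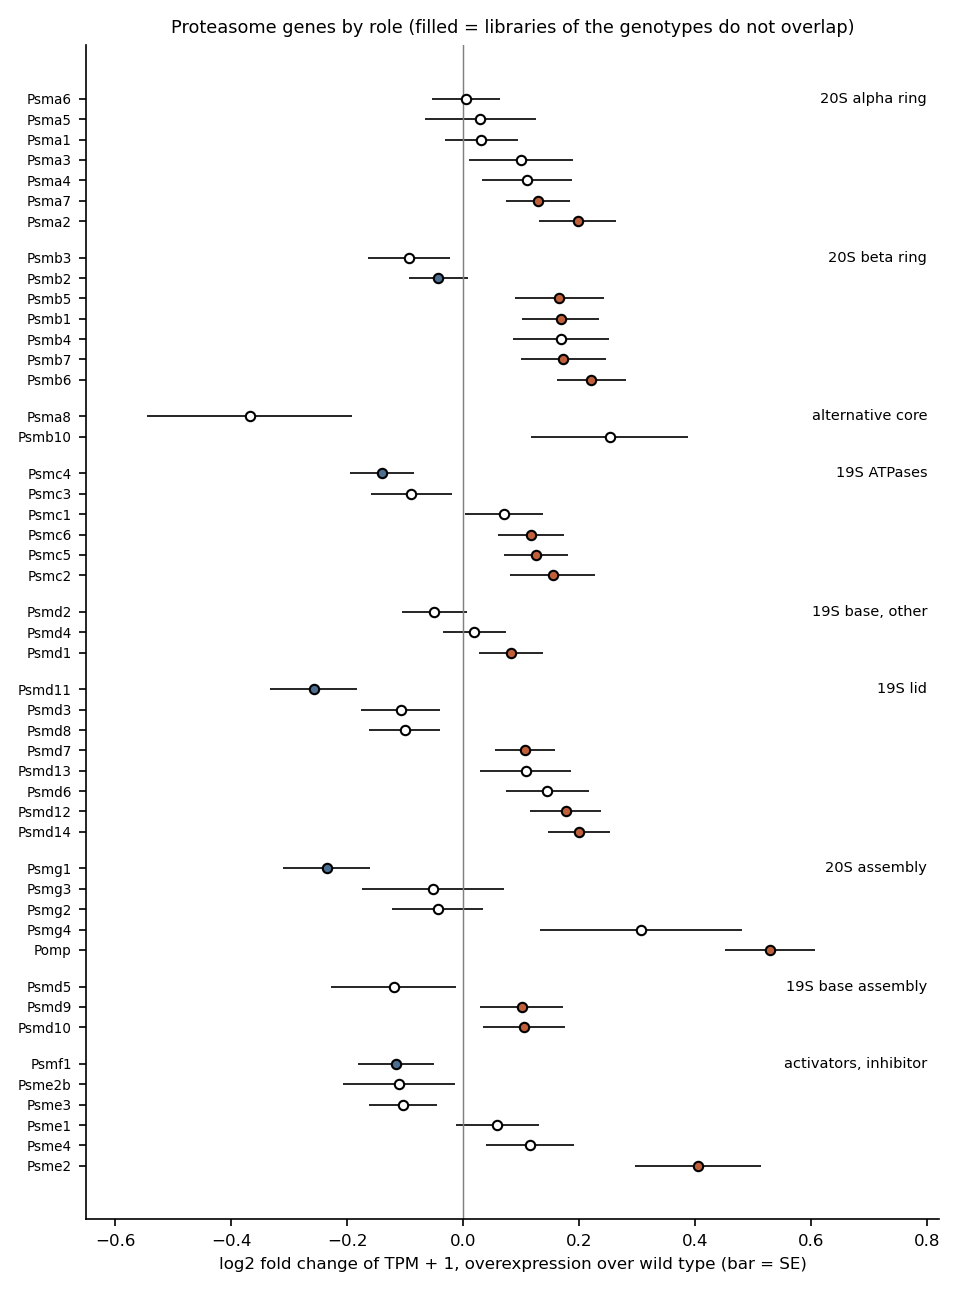
Log2 fold change of TPM + 1, overexpression over wild type, for the 47 tested components by role, with bars for the standard error. Filled points mark genes with no overlap of the genotypes; Pomp, at 0.53, lies farthest from 0.

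Pomp had the largest difference of all members. It stood at 166, 183 and 163 TPM in wild-type mice 1, 2 and 3 and at 247, 265 and 228 TPM in overexpression mice 1, 2 and 3. The lowest overexpression library lay above the highest wild-type library, and overexpression mouse 2 was the highest of all. The means were 170.5 ± 10.6 and 247 ± 18.8 TPM (SD, n = 3 each), a ratio of 1.45 and a log2 fold change of 0.53 with a standard error of 0.08. Relative to the mean of the 14 core genes in the same library, a ratio that does not depend on how the library was scaled, Pomp stood at 1.195, 1.21 and 1.06 in wild type and at 1.56, 1.67 and 1.45 in overexpression, again with no overlap. Macrophage markers lay above the wild-type mean by a median log2 difference of 2.20, 2.01 and 0.70 in overexpression mice 1, 2 and 3, and endothelial markers at -0.43, -0.90 and -0.23. Mouse 3 thus had the smallest differences of macrophage and endothelial markers and the lowest Pomp level of its group. Macrophage markers were highest in mouse 1, but Pomp in mouse 2. Smooth muscle markers had 0.54, 0.47 and 0.20 in the same mice, and fibroblast markers -0.08, 0.49 and 0.37. The part of these cell types in the Pomp level was not tested.

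Of the other 4 chaperones of the core, 3 had a negative and 1 a positive log2 fold change. Psmg1, which pairs with Psmg2 to start the alpha ring, measured 26.9, 26.7 and 26.5 TPM in wild type and at 21.6, 24.2 and 21.7 TPM in overexpression. All 3 overexpression libraries were lower, with a log2 fold change of -0.24 and a standard error of 0.07. Psmg2 had -0.04 and Psmg3 -0.05, with overlapping libraries. Psmg4, the partner of Psmg3, had 0.31 with a standard error of 0.17, but its wild-type libraries ranged from 7.09 to 11.4 TPM and overlapped those of overexpression, at 9.69 to 12.6 TPM.

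Among the chaperones of the 19S base, Psmd9 and Psmd10 (gankyrin, also known as an oncoprotein) were slightly higher in every overexpression library. Psmd10 was at 24.2, 26.1 and 26.6 TPM in the wild-type cultures and 28.0, 27.6 and 27.2 TPM in overexpression, a log2 fold change of 0.10 with a standard error of 0.07. Psmd9 had the same log2 fold change of 0.10. Psmd5, the most abundant of the 3 and the one with the largest difference (-0.12), was at 55.2, 56.0 and 51.6 TPM in wild type and at 57.9, 43.2 and 49.5 TPM in overexpression, where mouse 1 was the highest and mouse 2 the lowest of all 6.

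**Figure D3:**
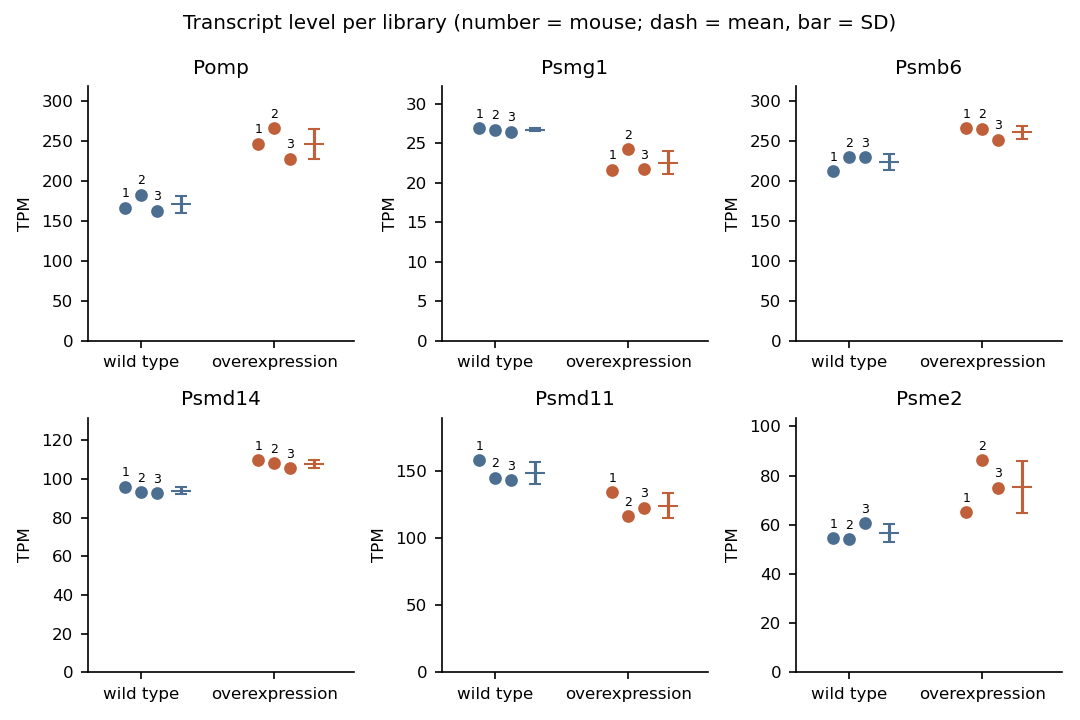
TPM per library for the chaperones Pomp and Psmg1, the catalytic subunit Psmb6, the lid subunits Psmd14 and Psmd11 and the activator Psme2, with the mouse number at each point and the mean and SD beside each group. In each of the 6 genes the genotypes do not overlap; Psmg1 and Psmd11 are lower in overexpression and the other 4 higher.

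The beta ring of the core had the highest median of the subunit classes, a log2 fold change of 0.17 over its 7 genes, 5 of them higher; without wild-type mouse 1 the median was 0.09. Psmb6, which carries the caspase-like activity and was both the most abundant beta subunit and the one with the largest difference, stood at 212, 229.8 and 230.3 TPM in wild type and at 266, 266 and 252 TPM in overexpression. Every overexpression library was above every wild-type library (log2 fold change 0.22, standard error 0.06). The chymotrypsin-like Psmb5 and the trypsin-like Psmb7 each had 0.17 and no overlap, with means of 111 and 125 TPM and of 137 and 154 TPM. Psmb1, a structural subunit, also had 0.17 with no overlap, and Psmb4 had 0.17 with overlapping libraries. Psmb2 and Psmb3 were the exceptions, at -0.04 and -0.09, and for Psmb2 all overexpression libraries, at 212 to 219.9 TPM, lay below the wild-type range of 223 to 225 TPM.

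The immune counterparts of the catalytic subunits gave no such separation. Psmb8 and Psmb9, which interferon places in the core instead of Psmb5 and Psmb6, were at 34.5 and 33.9 TPM and at 6.69 and 7.16 TPM in wild type and overexpression. Psmb10, which takes the place of Psmb7, stood at 15.3, 17.7 and 20.3 TPM in the wild-type and 18.3, 24.2 and 21.6 TPM in overexpression cultures, and the groups overlapped. Summed, these 3 genes came to 11.8% to 13.7% of the level of Psmb5, Psmb6 and Psmb7 in wild type and 10.9% to 12.3% in overexpression. Psma8, a relative of Psma7, stood at 7.70, 10.3 and 6.90 TPM in the wild-type and 6.04, 5.11 and 7.40 TPM in overexpression cultures, and its reads may be shared with its relative.

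All 7 alpha subunit genes had a positive log2 fold change, with a median of 0.10, and Psma2 and Psma7 showed no overlap. Over all genes tested, 48.3% were higher and 14.3% were higher with no overlap, and nothing is read from these counts. Psma2 was at 78.2, 82.5 and 88.8 TPM in wild type and at 95.4, 93.1 and 97.6 TPM in overexpression (log2 fold change 0.20, standard error 0.07). Psma7 had 0.13. Psma4, the most abundant alpha gene, was at 196, 231 and 227 TPM in the wild-type cultures and 239, 241 and 225 TPM in overexpression, where mouse 3 fell among the wild-type values. Psma1, Psma5 and Psma6 had 0.03, 0.03 and 0.01, and Psma6 had -0.01 once mitochondrially encoded genes were left out. Without wild-type mouse 1, the library that was lowest for most core genes, the median over the 14 core genes was 0.08 in place of 0.12, and 11 of them were higher in place of 12; the alpha median was 0.03, and Psma5 had -0.07.

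The ATPases of the 19S base, which form a ring of 6 and pull the substrate into the core, were split. Psmc2, Psmc5 and Psmc6 were higher with no overlap, by 0.15, 0.13 and 0.12. Psmc2 stood at 120.3, 137 and 140.0 TPM in wild type and at 143, 147 and 152 TPM in overexpression, with wild-type mouse 1 well below the rest. Psmc4 was lower with no overlap, at 139, 132 and 135 TPM in the wild-type and 122, 120.0 and 126 TPM in overexpression cultures (log2 fold change -0.14, standard error 0.05). Psmc3, the most abundant, was at 327, 337 and 332 TPM in the wild-type cultures and 333, 285 and 319.9 TPM in overexpression, where mouse 2 was the low library. Among the other base subunits, the ubiquitin receptor Psmd4 had 0.02. The scaffold Psmd2 stood at 247, 256 and 259 TPM in wild type and at 237, 244 and 255 TPM in overexpression, overlapping. The scaffold Psmd1 was at 103, 106 and 105 TPM and at 113, 107 and 112 TPM, without overlap, a log2 fold change of 0.08.

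The lid held the members of the 19S particle that lay farthest from 0 in each direction. Psmd14, the deubiquitinase that strips ubiquitin from substrates, stood at 95.9, 93.0 and 92.5 TPM in wild type and at 109.7, 108 and 106 TPM in overexpression, with no overlap and a gap wider than the range within either group (log2 fold change 0.20, standard error 0.05). Psmd11, a subunit that links lid and base, was lower in all 3 overexpression libraries, at 159, 145 and 143 TPM in the wild-type and 134, 116 and 123 TPM in overexpression cultures (log2 fold change -0.26, standard error 0.07). Psmd12 and Psmd7 were higher with no overlap, by 0.18 and 0.11, and Psmd6 and Psmd13 had 0.14 and 0.11 with overlap. Psmd8, the most abundant gene of the set, was at 356, 383 and 367 TPM in the wild-type cultures and 346, 326 and 359 TPM in overexpression. Psmd8 and Psmd3 had -0.10 and -0.11, and their libraries overlapped.

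Among activators and inhibitors, Psme2 stood apart. Psme1 and Psme2 together form PA28, a cap that interferon induces and that opens the core without ATP. Psme2 was at 54.6, 54.2 and 60.7 TPM in wild type and at 65.2, 86.3 and 75.0 TPM in overexpression, with no overlap and mouse 2 highest (log2 fold change 0.40, standard error 0.11). Its partner Psme1 had 0.06 and overlapped. Psme2b, a copy of Psme2 elsewhere in the genome, stood at 56.7, 50.5 and 52.4 TPM and at 50.5, 43.2 and 54.4 TPM, and the division of reads between near-identical copies is uncertain. The 2 genes summed to 111, 105 and 113 TPM in the wild-type and 116, 129.5 and 129.4 TPM in overexpression cultures, still without overlap but with a smaller difference. Psme3, a nuclear activator and the gene of this class with the highest wild-type level, was at 105, 107 and 100.1 TPM in wild type and at 93.7, 100.2 and 96.0 TPM in overexpression. The inhibitor Psmf1 was lower in every overexpression library, at 24.1 ± 0.514 TPM against 26.1 ± 0.230 TPM (SD, n = 3 each), and Psme4, an activator with a role in chromatin, had 0.11 with overlap.

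Summed over members, the set took 5526, 5792 and 5828 TPM in the wild-type and 6010, 5904 and 5997 TPM in overexpression cultures, a ratio of the means of 1.04, with no overlap. The core summed to 2071 ± 109 TPM in the wild-type cultures and 2212 ± 11.98 TPM in overexpression (SD, n = 3 each), without overlap, and the 19S particle to 2875 ± 43.4 and 2904 ± 80.6 TPM, with overlap. Within a library, the ratio of core to 19S was 0.689, 0.730 and 0.741 in wild type and 0.753, 0.789 and 0.743 in overexpression. The gap between the highest wild-type and the lowest overexpression ratio was narrow, and without wild-type mouse 1 the ratio of the means was 1.04 in place of 1.06. Mitochondrially encoded genes, which take part of the same total, held 12.4% to 14.3% of TPM in wild type and 11.96% to 12.3% in overexpression; with these genes left out and the rest rescaled, the ratio of the member sums was 1.03.

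**Figure D4:**
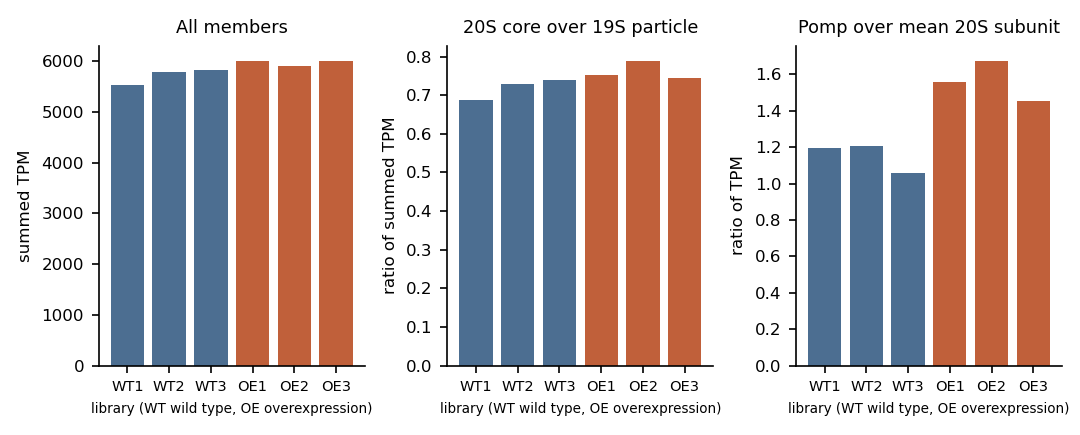
Per library, the summed TPM of all members (left), the ratio of summed 20S core to summed 19S TPM (middle) and the ratio of Pomp to the mean core gene (right), with wild-type libraries in blue and overexpression libraries in orange. The Pomp ratio is at most 1.21 in wild type and at least 1.45 in overexpression, and the other measures differ far less.

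Lists of other genes of the pathway are given beside all genes tested, whose median log2 fold change was -0.01. Of 16 tested subunits outside the naming pattern, bound enzymes and ubiquitin shuttles, 13 were lower, their median being -0.07 in log2 fold change. With limma, 0 were past the adjusted threshold, and 5 were lower and 0 higher at an unadjusted p below 0.05. Over all genes tested, 48.3% were higher, and 8.94% were lower and 10.6% higher at that unadjusted threshold. With no overlap, 12.9% of all genes were lower and 14.3% higher. Nothing is read from the counts of this paragraph. The shuttle genes Ubqln4 and Ubqln2, which carry ubiquitinated proteins to the proteasome, had -0.27 and -0.23, and Midn, which brings nuclear proteins to it without ubiquitin, had -0.22; none of the 3 overlapped. The shuttle gene Rad23b, the most abundant of this list at 220.3 TPM in wild type, had -0.17 with no overlap, while the lid subunit gene Sem1 had 0.08 and the proteasome-bound thioredoxin gene Txnl1 0.03. Among 19 ubiquitin genes, enzymes and chaperones, 6 were higher and 13 lower, with a median of -0.03 and 0 past limma's adjusted threshold, against 1 higher and 2 lower at an unadjusted p below 0.05. Rps27a, which encodes ubiquitin fused to a ribosomal protein, stood at 482, 607 and 589 TPM in wild-type mice and at 650.3, 710.2 and 646 TPM in overexpression mice, a log2 fold change of 0.26 with no overlap. Genes for ribosomal proteins have many near-identical copies, so this value is uncertain. The activating enzyme gene Uba1 had -0.23 with no overlap, while the polyubiquitin gene Ubb had -0.06 and the chaperone gene Hspa8 -0.04.

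The RNA of known regulators of the subunit genes was described as a further list. Of 17 genes, 5 were higher and 12 lower, their median being -0.05 in log2 fold change. With limma, 0 were past the adjusted threshold, and 1 was higher and 1 lower at an unadjusted p below 0.05. Of all genes tested, 48.3% were higher, with 10.6% higher and 8.94% lower at that threshold. The list joins genes that activate Nfe2l1, such as Ngly1, with genes that remove it, such as Syvn1. Its counts therefore have no common direction to read. Nfe2l1 stood at 299, 340.3 and 343 TPM in wild type and at 328, 253 and 340.3 TPM in overexpression, overlapping, and mouse 2 was the lowest of the 6. Nfe2l2, the related factor of the antioxidant response, was lower in every overexpression library, at 177, 141 and 184 TPM against 202, 188 and 195 TPM. Ngly1, the deglycosylase that processes Nfe2l1 into its active form, was higher with no overlap, at 27.2, 25.1 and 25.6 TPM against 20.7, 24.2 and 20.8 TPM. Syvn1, the ubiquitin ligase that retires Nfe2l1 at the endoplasmic reticulum, was lower with no overlap, at 28.8 ± 0.812 TPM against 33.3 ± 0.711 TPM (SD, n = 3 each). Vcp, the ATPase that extracts Nfe2l1 from the membrane, had 0.07.

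Footprint scores of the ATAC-seq data, which the RNA comparison did not use, were read for 20 motifs. They belong to some of these regulators and to BACH, MAF, HSF and YY1 proteins, and several describe nearly the same element, so they are not independent. A footprint score measures the dip in transposase cuts and the openness around a motif, averaged over all its sites in the genome, so it says nothing about any single promoter. In the authors' deposited table the 2 mice of a genotype were merged, so there is 1 value per genotype and no replicate check. Of 20 motifs, 18 had a higher score in overexpression by the authors' deposited change, as had 61.9% of all 879 motifs. The motif of Nfe2l1 with its partner Mafg had a mean score of 0.238 in wild type and 0.272 in overexpression in the authors' deposited table, and a change of 0.33, rank 195 of 879 from the top, against a median of 0.107 over all motifs. The Nfe2l2 motif had 0.237 and 0.263, with a change of 0.247 in the authors' deposited table. The highest changes were those of BACH1 and of 1 of the 2 BACH2 motifs, at 0.624 and 0.548 in the authors' deposited table, from scores of 0.249 and 0.314 and of 0.257 and 0.316; these proteins bind the same kind of element, which also resembles AP-1 sites. The CCAAT-binding NFYA, NFYB and NFYC motifs had changes of 0.079, 0.0499 and 0.108 in the authors' deposited table.

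The Nrf1 motif went the other way. In the authors' deposited table its mean score was 0.443 in wild type, the highest of the 20 motifs, and 0.400 in overexpression, a change of -0.289, rank 860 of 879. Of 18892 sites, 39.1% were called bound in wild type and 32.7% in overexpression in the same authors' deposited table. Nrf1 RNA was at 19.8 ± 0.817 TPM in the wild-type cultures and 18.6 ± 0.955 TPM in overexpression (SD, n = 3 each), overlapping. The 7 members whose promoter holds the letters of this site had log2 fold changes between -0.24 and 0.20. The authors' p-values were below 0.05 for 876 of the 879 motifs in their deposited table and so did not single out any of these.

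**Figure D5:**
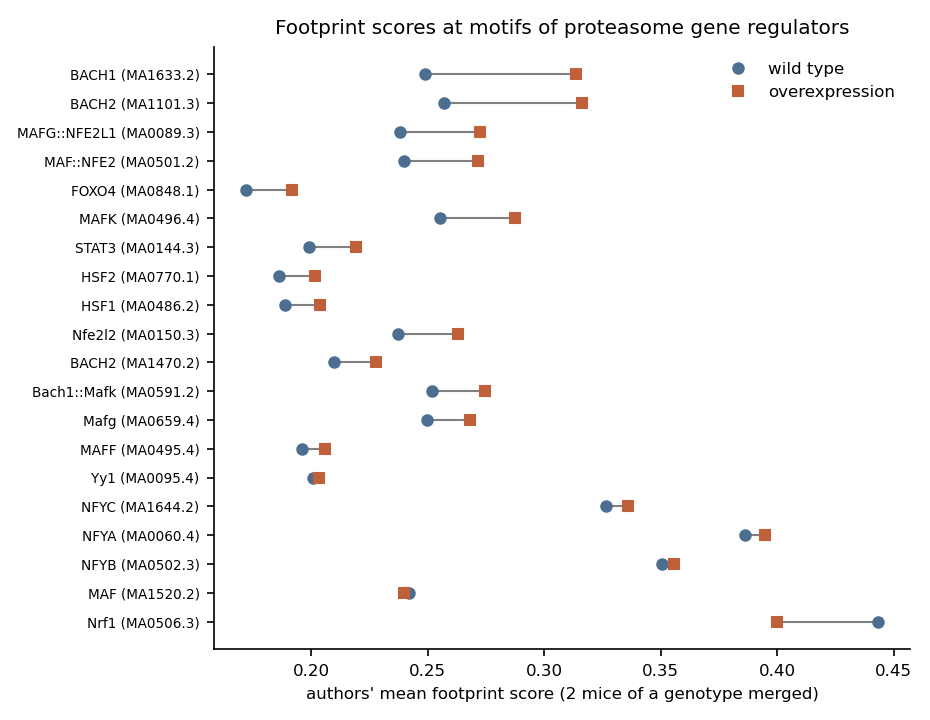
Mean footprint score in wild type (circles) and overexpression (squares) for 20 motifs, from the authors' deposited table with 2 mice merged per genotype, ordered by the authors' change. The motifs belong to some regulators of proteasome genes and to BACH, MAF, HSF and YY1 proteins. The Nfe2l1 motif moves from 0.238 to 0.272 and the Nrf1 motif from 0.443 to 0.400.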

How the data were processed

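The authors deposited gene-level TPM from kallisto (per the labels) on mm10 (per the submitters' processing notes). No version, transcript annotation or number of reads was found there, so depth is unknown. kallisto divides reads between similar transcripts, and TPM are relative to one total. The authors also deposited footprint results whose columns, per the file headers, are those of TOBIAS BINDetect: a mean signal, a count of sites searched and bound, a change score and a p-value per motif. The sign of the change was reversed here to read overexpression over wild type.

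Genes averaging 1 TPM or more in the 6 libraries were fitted by limma 3.58.1 (R 4.3.3) on the scale log2(TPM + 1) (eBayes with trend, two-sided, Benjamini-Hochberg, threshold 0.05). Fold changes are on that scale, which understates low genes. limma was tested on simulated data with log2 changes of 1 and 2, each given to 100 genes, of which it recovered 89 and 99. It also called 12 unchanged genes. These changes are larger than the member differences described above, so the test does not bear on differences of that size. Sums, motif searches and figures used Python 3.11.15, numpy 2.4.6, scipy 1.17.1, pandas 2.3.3 and matplotlib 3.10.9. The members and lists were chosen with earlier results of these data known. Values of every library are given for Pomp and, in each role class, for the most abundant member and the one with the largest difference; of the related lists, the 3 of smallest p and the 3 of highest level are named, except some that are not reported here. Same-numbered mice of the genotypes did not deviate together (correlations of -0.0221, 0.0581 and 0.0175). Alternatives changed the pseudocount, filter, scaling, weights, block, trend and libraries.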

Additional observations from a re-analysis of the deposited data

How the results depend on the processing

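The number of all genes past limma's adjusted threshold, 2, was 1 with a filter at 5 TPM, 2728 with library weights and between 1 and 828 when 1 library was left out. With mouse number as a replicate block it was 1; the numbers come only from the titles. The number of members past it, 0, was 12 with library weights and between 0 and 1 with 1 library left out. Members at an unadjusted p below 0.05 numbered 8 higher and 3 lower; the higher count was 13 with median-of-ratios scaling (10.8% of all genes), 14 with quantile normalisation (9.81%), 16 with library weights (19.2%) and between 4 and 11 with 1 library left out (7.55% to 11.9%), and the lower count was 9 with library weights (18.3%). The median over members, 0.09, lay between 0.0483 and 0.103 with 1 library left out, and was lowest without wild-type mouse 1. In the 250 bases before the start alone, the YY1 site matched 0 members in place of 2. Over 16 alternatives, 41 of 47 components kept the sign of their log2 fold change, 27 of them higher and 14 lower. Pomp lay between 0.47 and 0.58. Changes of filter, block or trend leave a log2 fold change as it is, so those alternatives could not alter a sign. Signs changed only with library weights, with 1 library left out or without mitochondrially encoded genes. The same count over all genes was not made. Leaving out symbols matched by name only was chosen after seeing the data.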

Other observations

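Of the 47 tested components, the level of Psmd14 followed that of Pomp most closely over the 6 libraries (Pearson's r = 0.949), followed by Psmb6 (0.942) and Psmd7 (0.923). The strongest coefficients of the opposite sign were those of Psmc4 (-0.982), Psmf1 (-0.923) and Psmd11 (-0.872). These libraries fall into the 2 genotypes and the genes were set beside Pomp after its values were known, so the coefficients are a description.

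Heat shock genes, among them genes for mitochondrial chaperones such as Hspd1, numbered 8, of which 6 were higher. Their median log2 difference was 0.13, with 0 past limma's adjusted threshold and 3 higher and 0 lower at an unadjusted p below 0.05. Of all genes tested, 48.3% were higher, with 10.6% higher and 8.94% lower at that threshold. Hspa1a and Hspa1b had the largest differences of the list, with no overlap. They were at 8.38 and 19.8 TPM in wild type and at 12.4 and 29.7 TPM in overexpression. The division of reads between these similar genes is uncertain. Hsph1 and Dnajb1 were lower. The mitochondrial chaperone gene Hspd1 was at 311 and 362 TPM and the abundant cytosolic Hsp90aa1 at 810.2 and 854 TPM in wild type and overexpression.

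Of 12 proliferation genes, 8 were lower, with a median of -0.10. With limma, 0 were past the adjusted threshold, and 3 were lower and 0 higher at an unadjusted p below 0.05. At that threshold 8.94% of all genes tested were lower and 10.6% higher.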
